A study of Mus musculus with 4 samples.

Results

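The replication-dependent histone genes supply the bulk of the H1, H2a, H2b, H3 and H4 proteins that package newly copied DNA. They were taken here as every mouse gene symbol that begins with Hist1h, Hist2h, Hist3h or Hist4h and had at least 10 unique molecular identifiers (UMIs, each standing for 1 captured mRNA molecule) summed over the 4 deposited libraries. Of 67 such symbols among 32285 features, 61 met the minimum: 5 encode H1, 16 H2a, 16 H2b, 12 H3 and 12 H4. The 6 symbols left out (Hist1h1t, Hist1h2aa, Hist2h2aa2, Hist1h2ba, Hist1h2bq and Hist1h4m) held at most 8 UMIs each, and the smallest member, Hist2h3c2, held 45.

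The study profiled CD8 T cells of tumour-draining lymph nodes by 3′ single-cell RNA sequencing. Cells positive for CD44, CD90.1 and CD8 were sorted from C57BL/6 mice 14 days after tumour implantation. The C6M9 group carries the label Low Affinity GP33 and the M9 group the label High Affinity GP33, after a peptide of a virus that CD8 T cells recognise. Each group had 2 libraries, made from 10 mice (M9) and 35 mice (C6M9), and between 11600 and 16500 cells were loaded per library. How the mice were divided between duplicates is not stated, so each SD, SE and p measures the spread between these libraries and may be technical. The series title ties the comparison to T cell receptor engagement in progenitor exhausted cells.

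After filters, 9920 T cells remained, 4100 and 1199 in M9 replicates 1 and 2 and 2888 and 1733 in C6M9 replicates 1 and 2. Defining genes of the sort were present in every library: Cd3e lay between 599 and 818 CPM (a gene's UMIs scaled to the total of its library or group of cells), Cd8a between 520 and 582, Cd8b1 between 977 and 1104, Thy1 between 116 and 175 and Cd44 between 63.9 and 99.5, while Cd4 reached at most 3.17 CPM. The libraries shared at most 4 cell barcodes pairwise. M9 replicate 2 stood apart in its histone mRNA, as described further on, so the group comparisons are given with and without it.

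Histone mRNA is tied to DNA replication. Transcription of these clustered, mostly intronless genes rises at the start of S phase through the cyclin E and CDK2 target NPAT, and the transcripts are normally cut just after a conserved stem-loop in place of receiving a poly(A) tail. Stem-loop binding protein (Slbp) holds that end for processing and translation, and the mRNA is destroyed when replication stops. The 3′ kit captures RNA through runs of A, so what it counts of such a gene is the part of its mRNA that carries a tail or an internal run of A, and how that part relates to the whole was not tested.

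Histone UMIs were few and unequally spread over the genes. The 61 genes gave 489373 UMIs in T cells, 0.211% of all T cell UMIs. Hist1h2ap, an H2a gene, held 22.1% of them, the linker histone gene Hist1h1b 18.8% and Hist1h2ae, another H2a gene, 14.9%, so that 3 genes made up 55.9% and the leading 10 made up 80.6%. By type, H2a genes held 46.3% of the histone UMIs, H1 31.3%, H4 8.93%, H3 7.30% and H2b 6.14%. UMI counts were compared between genes without length scaling, since a 3′ library counts a captured molecule once. The captured part of each gene's mRNA was not measured, so these are shares of UMIs and not of mRNA. Of the 61 genes, 30 share more than 50% of the 60-base words in their last 300 transcript bases with another gene, Hist1h2ap all of them, so the split of UMIs within such families is uncertain. Hist1h1b, Hist1h4i, Hist3h2a and Hist1h1c are among the 18 genes that share none. Hist1h1e overlaps Hist1h2be on the same strand, and both counts are uncertain for that reason.

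To follow the cell cycle without using histone genes, each T cell was given the UMIs per 10000 of 39 S phase genes and of 49 G2 and M phase genes. Cells were split at 15.8 for the S score and 25.4 for the G2M score. This left 7319 cells under both values (non-cycling range), 458 above the S value only (S range), 1416 above both (S and G2M range) and 727 above the G2M value only (G2M range). These are ranges of a score and not cell types: 626 cells lay within 10% of the S value and 1690 within 10% of the G2M value. The S and G2M range held 10.3% and 12.4% of M9 cells and 19.1% and 16.9% of C6M9 cells in replicates 1 and 2. Its cells were deeper, with a median of 45124 UMIs against 13311 in the non-cycling range, and the levels below are CPM, which scale this out.

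Cells of the S and G2M range carried most of the histone mRNA. They were 14.7% ± 4.04 (SD, n = 4) of T cells and held 89.0% ± 2.22 of histone UMIs. The summed histone level in that range was 5483 CPM in M9 replicate 1, 11020.3 in M9 replicate 2, 4257 in C6M9 replicate 1 and 5007 in C6M9 replicate 2. In the non-cycling range the same sums were 226, 426, 241 and 253 CPM. The libraries of the 2 ranges did not overlap, and every type followed this order, as the plot of type sums by range shows. The S range (436, 525, 669 and 919 CPM) and the G2M range (416, 670.1, 434 and 997 CPM) lay between these in each library.

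**Figure D1:**
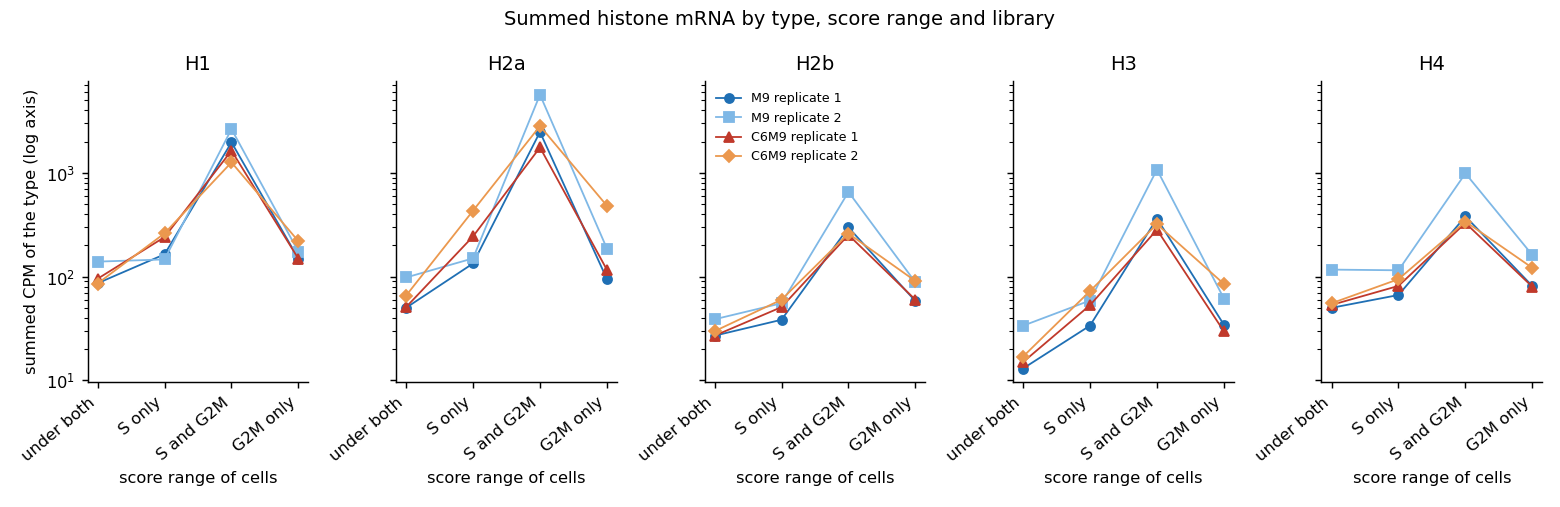
Summed CPM (log axis) of the H1, H2a, H2b, H3 and H4 genes, 1 panel per type, in the 4 score ranges of T cells (under both is the non-cycling range); each line is 1 of the 4 libraries. All 20 lines peak in the S and G2M range, and M9 replicate 2 is the highest library there for every type.

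The ranges also differed in how many cells showed any histone UMI, though less sharply. At an expected depth of 5000 UMIs per cell, 67.5% of non-cycling range cells, 72.5% of S range cells, 96.2% of S and G2M range cells and 81.4% of G2M range cells would hold at least 1 histone UMI (7252, 455, 1396 and 706 cells were deep enough). Without thinning these shares were 90.3%, 96.5%, 99.9% and 94.6%. The mean number of histone UMIs at that depth was 1.29, 2.30, 29.4 and 2.33. A cell type other than the sorted one gave a similar low end: non-cycling range B cell-like cells, 109 cells at a median depth of 9849 UMIs of which 77 were deep enough, had a thinned share of 75.2% and a mean of 1.69 UMIs. The shares of the non-cycling and S ranges lay below that value, so no expression is read from these shares. The summed histone level of the B cell-like cells (216, 484, 314 and 331 CPM in M9 replicates 1 and 2 and C6M9 replicates 1 and 2) was near that of non-cycling range T cells, and the part of RNA free in the droplets in the low levels was not tested.

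Nearly all members were higher in S and G2M range cells than in non-cycling range cells of the same libraries. The test was edgeR's quasi-likelihood test on UMIs summed per library and range, with library as a term and Benjamini-Hochberg adjustment over all genes (threshold 0.05). Of 55 members tested, 54 were higher and 1 was lower, with a median log2 difference of 4.03, against 35.7% of 11125 genes higher and 42.3% lower (78.0% in either direction), and a median of -0.08, over all genes. A filter on low counts can pass a gene only through the range where it is high: 40 of the 55 had at least 10 UMIs in the non-cycling cells of every library, and 39 of these 40 were higher. Without the filter all 61 were fitted, 58 were higher and 1 lower (22.5% of 20193 genes were higher). Hist2h3c1 and Hist2h3c2, with 60 and 44 UMIs in all T cells, were the 2 not called. By type the median difference was 4.09 for H1, 4.77 for H2a, 4.0 for H2b, 4.41 for H3 and 3.0 for H4.

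**Figure D2:**
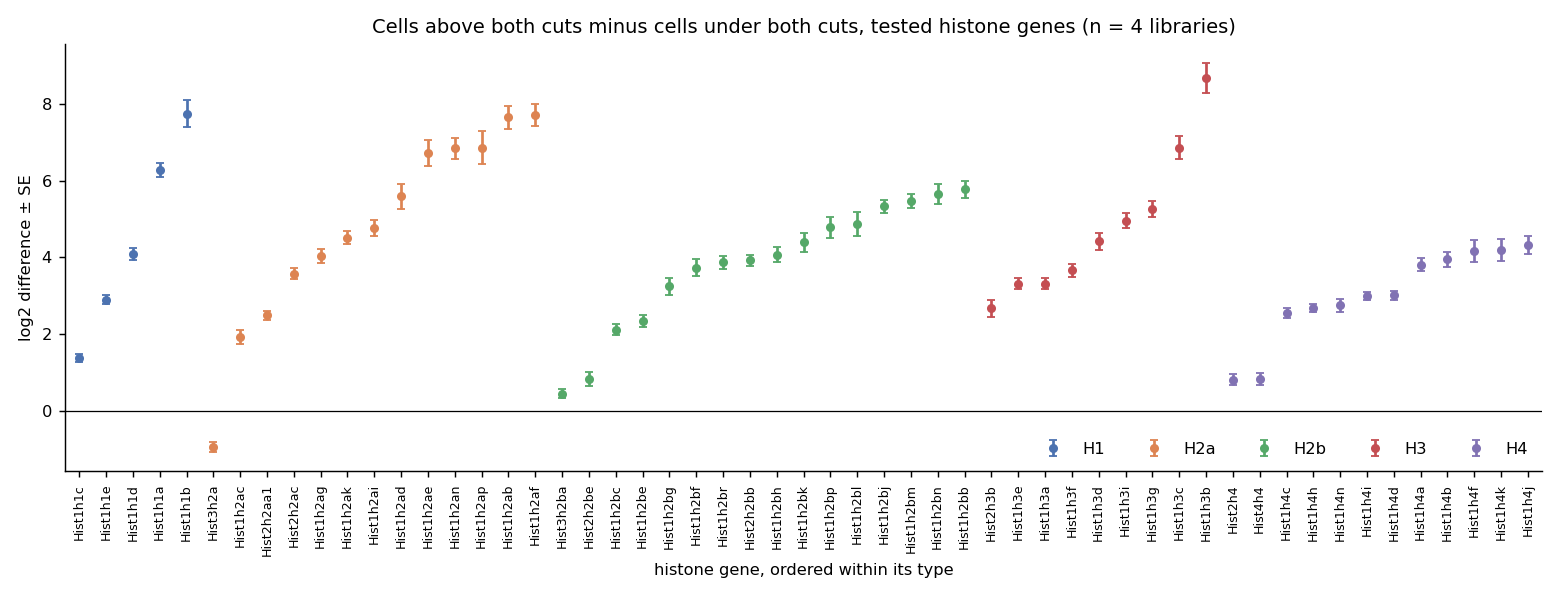
Log2 difference between S and G2M range and non-cycling range cells for the 55 histone genes tested (points, bars are the SE from edgeR, n = 4 libraries), coloured and ordered by type. Fitted differences run from -0.94 for Hist3h2a to 8.67 for Hist1h3b, which rests on 8 non-cycling UMIs, and Hist3h2a is the only gene below 0.

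The H1 genes encode linker histones, which bind the DNA entering and leaving a nucleosome, and their differences ran from 1.37 to 7.75. Hist1h1b stood at 6.80, 5.92, 5.54 and 4.70 CPM in non-cycling range cells (M9 replicates 1 and 2, then C6M9 replicates 1 and 2, the order used from here on) and at 1351, 1640.1, 1076 and 822 CPM in S and G2M range cells. Every library of the second range was above every library of the first, a log2 difference of 7.75 ± 0.35 (SE; edgeR adjusted p = 1.21e-14). Hist1h1c went from 32.8, 58.0, 40.1 and 35.6 CPM to 105, 166, 88.9 and 73.1 CPM, 1.37 ± 0.10 (edgeR adjusted p = 1.03e-10). The levels of Hist1h1c also did not overlap, but its non-cycling level was among the highest of all members in M9 replicate 1, after Hist1h1e (40.2 CPM) and ahead of Hist1h4d (21.1 CPM). Hist1h1e rose by 2.89 ± 0.12 and Hist1h1d by 4.09 ± 0.16.

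H2a and H2b form the dimers on the outer faces of the nucleosome. The member with the most UMIs and the least cycle-bound member were both H2a genes. Hist1h2ap had 9.53, 24.5, 6.53 and 16.3 CPM in non-cycling range cells and 1106, 2856, 742.0 and 1554 CPM in S and G2M range cells, a log2 difference of 6.86 ± 0.42 (edgeR adjusted p = 3.19e-12). Hist1h2ae went from 8.70, 12.4, 6.88 and 11.3 to 922, 1587, 663 and 870.2 CPM, 6.72 ± 0.33. Hist2h2ac, on chromosome 3, rose by 3.57 ± 0.14 from 12.2, 29.3, 15.7 and 14.7 CPM. Hist1h2af had only 11 UMIs in non-cycling range cells of all libraries against 1503 in S and G2M range cells, a ratio of CPM of 209 (exact 95% interval 117 to 420.1, counting error only).

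H2b genes held few UMIs as a type, and all 3 leading members rose. In S and G2M range cells Hist1h2bj had 66.4, 151, 55.9 and 60.9 CPM (difference 5.32 ± 0.16), Hist2h2bb 37.6, 82.0, 34.5 and 32.1 CPM (3.93 ± 0.15) and Hist1h2bm 43.2, 83.7, 38.8 and 30.3 CPM (5.48 ± 0.18). In each of the 3 the lowest S and G2M value was above the highest non-cycling value, which was 3.42, 4.07 and 1.26 CPM in turn.

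H3 and H4 form the central tetramer of the nucleosome. Hist1h3c had 1.55, 2.98, 1.61 and 1.73 CPM in non-cycling range cells and 178, 558, 139.6 and 141 CPM in S and G2M range cells (6.86 ± 0.29). Hist1h3b had at most 0.11 CPM in the former and 19.5, 87.7, 16.1 and 26.5 CPM in the latter. Its 8 UMIs in non-cycling range cells of all libraries against 2229 give a ratio of CPM of 427 (exact 95% interval 216 to 990, counting error only), so the size of this difference and its rank among the members are not fixed by these counts. Hist1h3e and Hist1h3f rose by 3.32 ± 0.15 and 3.67 ± 0.17; the last 300 transcript bases of these 2 are fully shared, so their split is uncertain. Of the H4 genes, Hist1h4d went from 21.1, 64.2, 21.7 and 23.3 to 183, 583, 156 and 159.5 CPM (3.01 ± 0.13), Hist1h4i from 8.97, 9.55, 8.93 and 8.62 to 75.8, 75.0, 72.2 and 62.0 CPM (2.99 ± 0.10), and Hist1h4h rose by 2.68 ± 0.11. Hist1h4i was the most even of these, with close values in all 4 libraries of a range.

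A few members departed from this pattern. Hist3h2a, an H2a gene on chromosome 11, had 8.76, 9.44, 8.11 and 9.22 CPM in non-cycling range cells against 5.44, 3.63, 3.58 and 5.63 CPM in S and G2M range cells. Its CPM fell by 0.94 ± 0.12 on the log2 scale (edgeR adjusted p = 5.85e-07), in 4 of 4 libraries. Non-cycling range cells held 67.1% of its UMIs, below the 73.1% of T cells in that range. S and G2M range cells were 14.7% of T cells and held a larger share of its UMIs than that. The fall of Hist3h2a is thus one in CPM, and no fall per cell was shown. Its neighbour Hist3h2ba, an H2b gene, stood at 7.48, 7.71, 6.02 and 6.57 CPM against 9.31, 12.5, 9.23 and 7.49 CPM (0.45 ± 0.11; edgeR adjusted p = 0.00114), and the 2 sets of values overlapped. Hist2h4 (0.81 ± 0.14), Hist4h4 (0.82 ± 0.16) and Hist2h2be (0.83 ± 0.17) came next. The share of UMIs in non-cycling range cells was 49.1% for Hist3h2ba, 42.5% for Hist2h4, 41.7% for Hist4h4 and 41.0% for Hist2h2be, each below the 73.1% of T cells in that range. It was 0.778% for Hist1h1b and 0.416% for Hist1h3b.

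The departures went with genome position. Of the members, 49 lie in the large cluster region on chromosome 13, 9 on chromosome 3, 2 on chromosome 11 and 1 on chromosome 6. The median state difference was 4.25 over the 46 tested on chromosome 13 and 2.58 over the 6 tested on chromosome 3. The members on chromosomes 11 and 6 lay between -0.94 and 0.82. The smallest difference on chromosome 13 was that of Hist1h1c. Members that share a promoter region could differ: 11 pairs of members start head to head, 10 of them an H2a with an H2b gene, and Hist2h2ac (3.57) and Hist2h2be (0.83) start 239 bases apart, as do Hist1h2ae (6.72) and Hist1h2bg (3.24) at 176 bases. Hist1h2ac (1.93) and Hist1h2bc (2.12), 251 bases apart, were close.

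The departures also went with the annotated 3′ end. The histone stem-loop was searched on the transcript strand as 16 bases (GGC, any base, CTTTT, any base, AG, any base, GCC), and it occurred in GENCODE M21 transcripts of 39 members and of 3 of 21884 other protein-coding genes (0.0137%). The sites of members from both ends of the state difference follow, taken from the GENCODE transcripts (GRCm38), with 7 bases on either side and with the stem-loop letters in capitals.

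Hist1h3b (chr13:23752267-23752886, plus strand): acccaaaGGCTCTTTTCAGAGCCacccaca

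Hist1h3c (chr13:23744973-23745602, minus strand): aaaaaaaGGCTCTTTTAAGAGCCacctaag

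Hist1h4d (chr13:23581598-23582735, plus strand): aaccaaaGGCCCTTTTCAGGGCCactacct

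Hist1h1c (chr13:23738808-23740367, plus strand): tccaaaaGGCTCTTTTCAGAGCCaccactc

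Hist3h2a (chr11:58954685-58956830, plus strand): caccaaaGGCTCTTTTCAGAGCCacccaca

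Hist2h4 (chr3:96261682-96263311, minus strand): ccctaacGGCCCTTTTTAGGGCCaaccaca

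Hist4h4 (chr6:136801553-136804415, minus strand): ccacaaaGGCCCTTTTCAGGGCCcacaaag

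The 16 letters themselves did not separate the members: Hist1h3b, with a strong rise, and Hist3h2a, whose CPM fell, carry the same stem-loop. What differed was how far the annotated transcript runs past it. In 19 members the transcript ends within 100 bases of the stem-loop; 6.19% was the median share of their UMIs in non-cycling range cells (range 0.416% to 21.03%), and their median state difference was 4.59. In 20 members it runs on for more than 100 bases, by 840 in Hist1h1c, 1257 in Hist2h4, 1643 in Hist3h2a and 2445 in Hist4h4, and there the median share was 18.9% (1.58% to 67.1%) and the median difference 2.94. The groups overlap: Hist1h2ae, with 151 bases after the stem-loop, belongs to the second and had 1.58% of its UMIs in non-cycling range cells. The lengths named above are of members with a small rise or a fall in CPM. Among these, Hist2h4, Hist3h2a and Hist4h4 lie off chromosome 13 and Hist1h1c lies on it. Position and 3′ end therefore cannot be told apart for the former. Long runs also occurred in members that rose strongly. Hist1h1d, with the longest run (4884 bases), had a share of 8.44% and a difference of 4.09. Hist1h2bh, with 1214 bases, had 8.24% and 4.07. In the 22 members without the letters the median share was 6.66%. These groups were compared after the values were known and are a description, and a transcript model without the letters can be a model that stops short.

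**Figure D3:**
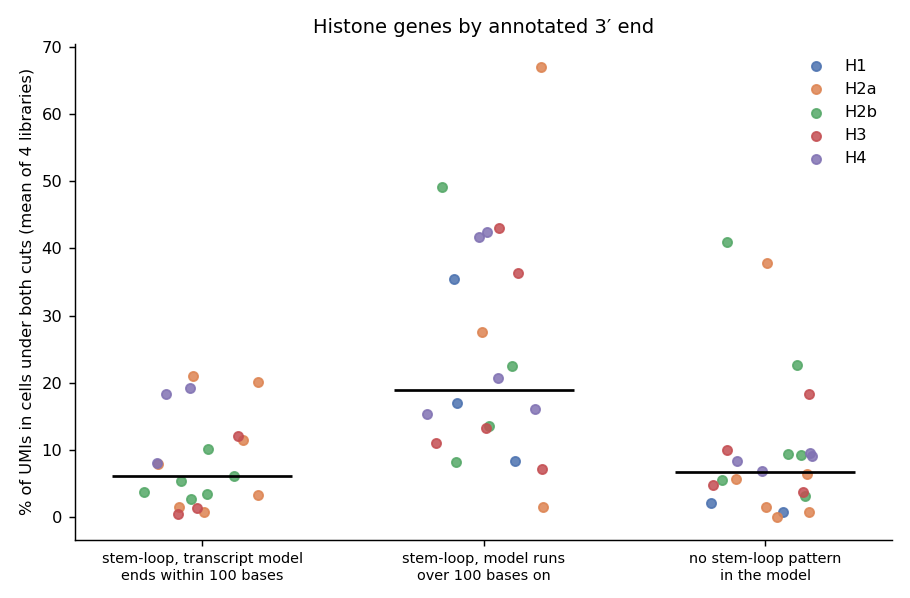
Share of each histone gene's UMIs that came from non-cycling range cells (y axis, mean of 4 libraries) for the 61 genes, by annotated 3′ end; points are genes coloured by type, bars are medians. The medians are 6.19%, 18.9% and 6.66% from left to right, and the highest point is Hist3h2a. Non-cycling range cells were 73.1% of T cells (mean of 4 libraries).

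Directly before the stem-loop of Hist1h2ap, the member with the most UMIs, stand 12 A bases, against a median of 3 among the 39 members. Hist1h2ao has the identical stretch and held 73 UMIs against 107993 for Hist1h2ap. Hist1h2ao shares 88.4% of the 60-base words in its last 300 bases with other genes, Hist1h2ap among them, and the split between the pair is uncertain. Counted anywhere in the longest transcript, the longest run of A was 6 bases in Hist1h1b, which held 92218 UMIs. It was 15 in Hist1h2ac, which held 2400. The part of such runs in the counts was not tested. The stretches of Hist1h2ap and Hist1h2ao are shown beside that of Hist1h2ae, with the stem-loop in capitals.

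Hist1h2ap (chr13:21833026-21833507, minus strand): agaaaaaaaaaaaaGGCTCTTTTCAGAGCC

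Hist1h2ao (chr13:21810465-21810944, plus strand): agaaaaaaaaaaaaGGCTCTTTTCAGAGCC

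Hist1h2ae (chr13:23570517-23571220, minus strand): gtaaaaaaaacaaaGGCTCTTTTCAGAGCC

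Since the members rose together, their promoters were searched for 3 short motifs on both strands in the 250 bases before each RefSeq gene start (GRCm38.p6; 56 of 61 members matched): CCAAT, bound by NF-Y, TATAAA, the TATA box, and ATTTGCAT, the octamer bound by OCT1. No motif holds another within it. CCAAT occurred in 82.1% of the 56 against 34.5% of 27025 RefSeq promoters, TATAAA in 46.4% against 13%, and ATTTGCAT in 19.6% against 1.61%. CCAAT stood before all 5 H1, 16 H2a and 14 H2b genes searched and before 8 of 10 H3 but 3 of 11 H4 genes. ATTTGCAT was found in 6 H2a and 5 H2b promoters and in none of the other types. The 10 pairs of an H2a and an H2b gene start 176 to 302 bases apart, so the 250-base windows of a pair can overlap. A match can then count for both genes, and these shares do not come from 56 separate promoters. Promoters are printed for a linker histone gene and an H2a gene with a strong rise. Those of an H4 gene without CCAAT and of the gene whose CPM fell follow. Each match is in capitals.

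Hist1h1b (chr13:21780626-21780875, minus strand): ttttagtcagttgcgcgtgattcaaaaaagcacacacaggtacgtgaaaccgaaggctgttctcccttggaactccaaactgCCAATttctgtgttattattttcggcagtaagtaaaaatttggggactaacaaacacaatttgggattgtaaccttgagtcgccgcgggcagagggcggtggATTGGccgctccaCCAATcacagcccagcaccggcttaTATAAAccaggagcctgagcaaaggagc

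Hist1h2ae (chr13:23571221-23571470, minus strand): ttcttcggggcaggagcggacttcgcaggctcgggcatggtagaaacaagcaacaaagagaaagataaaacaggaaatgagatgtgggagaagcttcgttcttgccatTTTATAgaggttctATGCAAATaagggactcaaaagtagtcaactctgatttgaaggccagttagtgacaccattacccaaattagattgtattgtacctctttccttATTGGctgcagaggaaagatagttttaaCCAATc

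Hist1h4i (chr13:22041363-22041612, minus strand): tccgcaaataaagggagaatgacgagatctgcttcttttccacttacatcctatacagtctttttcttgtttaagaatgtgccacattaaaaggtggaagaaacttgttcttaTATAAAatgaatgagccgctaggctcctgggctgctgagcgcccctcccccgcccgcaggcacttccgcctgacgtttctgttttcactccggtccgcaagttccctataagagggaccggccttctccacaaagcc

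Hist3h2a (chr11:58954435-58954684, plus strand): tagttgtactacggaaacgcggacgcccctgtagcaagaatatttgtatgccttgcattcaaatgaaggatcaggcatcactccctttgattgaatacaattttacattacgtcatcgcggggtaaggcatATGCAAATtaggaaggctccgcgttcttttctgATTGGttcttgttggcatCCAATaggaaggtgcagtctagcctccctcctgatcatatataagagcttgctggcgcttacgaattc

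Hist3h2a, whose CPM was lower in S and G2M range cells, carries CCAAT and the octamer. Hist1h4i, whose CPM was higher there, carries no CCAAT. The part of these motifs in the differences was not tested. A match to these letters is a description and not a measured binding site.

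The ranges with only 1 high score gave smaller differences. Against non-cycling range cells, 35 of the 55 members tested were higher and 4 lower in S range cells (28.9% of 11125 genes were higher and 27.8% lower, 56.7% in all), with a median of 1.43 against -0.03 over all genes. Hist1h1b rose by 4.04 ± 0.34. The 4 whose CPM fell were Hist3h2a, Hist3h2ba, Hist2h4 and Hist1h1c, by 1.14 ± 0.18, 0.94 ± 0.19, 0.64 ± 0.24 and 0.62 ± 0.14. In G2M range cells 33 were higher and none lower (15.4% and 13.9% of genes, 29.3% in all), with a median of 1.31, and Hist1h1b rose by 3.02 ± 0.39. Both counts moved with the cuts: with cuts 20% lower the S range had 3 of 56 members higher and 4 lower (5.36% and 7.14%, against 17.5% and 13.2% of genes) and a members' median of -0.08. The G2M range then had 10 of 56 higher (17.9% against 7.06% of genes), and with cuts 20% higher 54 of 57 higher and 1 lower (24.4% and 23.0% of genes).

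Clusters of cells, built without the histone genes, placed the histone mRNA further. They are described and not tested. Cluster 6, cycling-like with Top2a, Rrm2 and Pclaf among its leading genes, had summed histone levels of 6055, 10840.1, 4168 and 4772 CPM. Cluster 5, also cycling-like but led by the mitotic genes Ccnb2, Cenpe and Cdc20, had 474, 835, 490.2 and 527 CPM. Cluster 8, led by the granzyme gene Gzma, had 3264, 7528, 3579 and 3529 CPM, the second of these from 12 cells. Of its 336 cells, 277 lay in the S and G2M range and 15 in the non-cycling range. Within the S range, cluster 6 cells had 857, 722, 836 and 1025 CPM, whereas TCR-activated-like cells of the same range (led by Tnfrsf4, Cd83 and Xcl1) had 234, 352, 212 and 184 CPM, at the level of the non-cycling range.

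M9 replicate 2 differed from the other 3 libraries in its histone mRNA, mainly in the S and G2M range and the non-cycling range. In S and G2M range cells, 51 of the 59 members with at least 40 UMIs were at least 1.5 times the mean of the other libraries there (ratio of CPM + 0.5), against 3.68% of 11660 genes. The median ratio was 2.29, and 1.03 over all genes. M9 replicate 2 was the highest library for 54 of the 59. The exceptions were Hist1h2ao, Hist2h2ab, Hist3h2a, Hist2h2be and Hist1h4i, which were named after their values were seen. By type the median ratio was 1.85 for H1, 2.39 for H2a, 2.28 for H2b, 2.30 for H3 and 2.40 for H4, and the highest was that of Hist1h2an (4.91). In non-cycling range cells 22 of 46 members reached 1.5 times, against 5.85% of genes. The S range did not show this: 4 of 36 members reached 1.5 times and 9 lay as far below (5.91% and 4.51% of genes). The median ratio there was 1.00, and for C6M9 replicate 2 against its others 15 of 36 reached 1.5 times (2.02% of genes). In the G2M range 9 of 34 members of M9 replicate 2 reached 1.5 times and 3 lay as far below (6.50% and 3.93% of genes), with a median of 1.21.

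**Figure D4:**
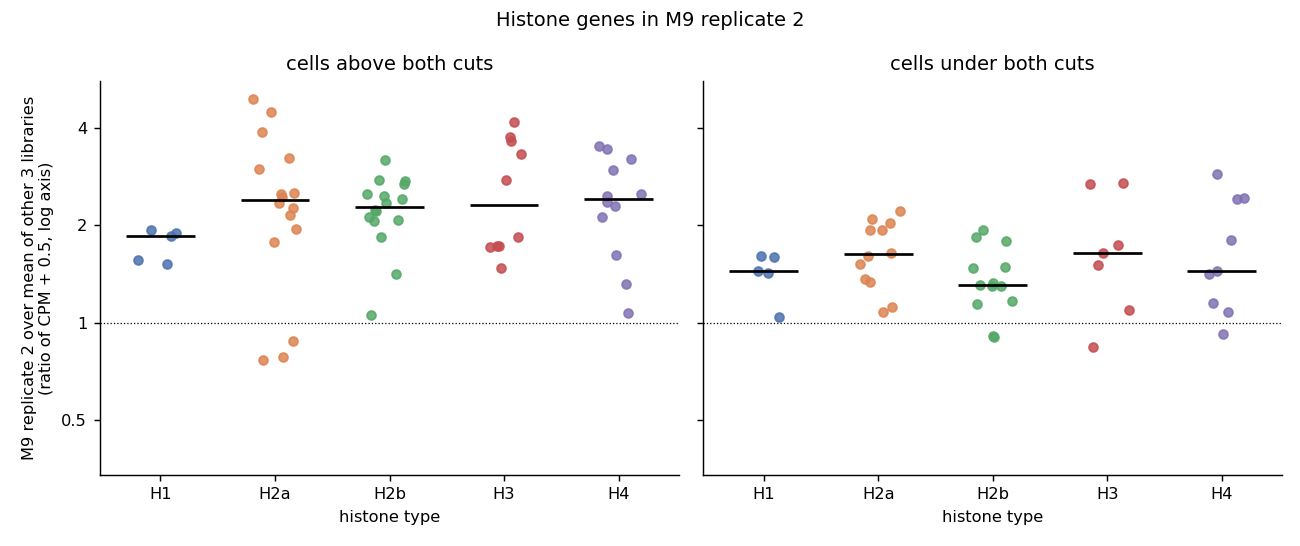
Ratio of the CPM of M9 replicate 2 to the mean of the other 3 libraries (CPM + 0.5, log axis) for histone genes with at least 40 UMIs, by type, in S and G2M range cells (left) and non-cycling range cells (right); bars are medians. Most points lie above the dotted line at 1, and the median over all types on the left is 2.29.

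Other measures of that library did not move by as much. In S and G2M range cells its S gene list summed to 5490 CPM (4420 to 5120 in the others), its G2M gene list to 7878 CPM (6371 to 7586), its median mitochondrial share was 3.29% (3.45% to 3.80%), and its median depth was 57024 UMIs (37216 to 61572). The replication-independent histone variants, which are mostly polyadenylated, summed to 5557 CPM against 5772 to 6603. Within cluster 6 cells of this range the histone sum was 6827, 12382, 4775 and 5884 CPM, so the ratio held within 1 cluster. The part of depth, batch or RNA quality in the higher histone level was not tested.

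The group comparison asks whether C6M9 cells held more or less histone mRNA than M9 cells. Over all T cells none of the 61 members was called by edgeR, against 5.95% of 13650 genes (1.7% higher and 4.25% lower). Of the members, 2 had an unadjusted edgeR p under 0.05, a count given without its share over all genes. DESeq2 called 1 of 58 higher (1.72%, against 3.96% of genes higher and 4.67% lower). The median log2 difference, C6M9 minus M9, was -0.17, and -0.02 over all genes. In such a sum, fewer histone-rich cells and less histone mRNA per cell cannot be told apart; the S and G2M range held 11.4% ± 1.51 of M9 cells and 18.0% ± 1.56 of C6M9 cells (SD, n = 2). Hist1h4i had the smallest p (log2 difference 0.39 ± 0.11; edgeR adjusted p = 0.0874). For the 3 genes with the most UMIs the differences were 0.06 ± 0.20 (Hist1h1b), -0.14 ± 0.45 (Hist1h2ap) and -0.03 ± 0.26 (Hist1h2ae), and their signs turned when 1 library was left out.

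The direction over all T cells rested on which M9 library was used. Without M9 replicate 2, 21 members were higher in C6M9 and none lower (3.99% and 6.27% of genes) and the median was 0.48. Without M9 replicate 1, 34 were lower and none higher (6.29% and 6.4% of genes) and the median was -0.67. The 2 M9 libraries thus lay on either side of the C6M9 libraries, with summed levels of 1523 and 3524 CPM against 2028 and 2135 CPM.

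**Figure D5:**
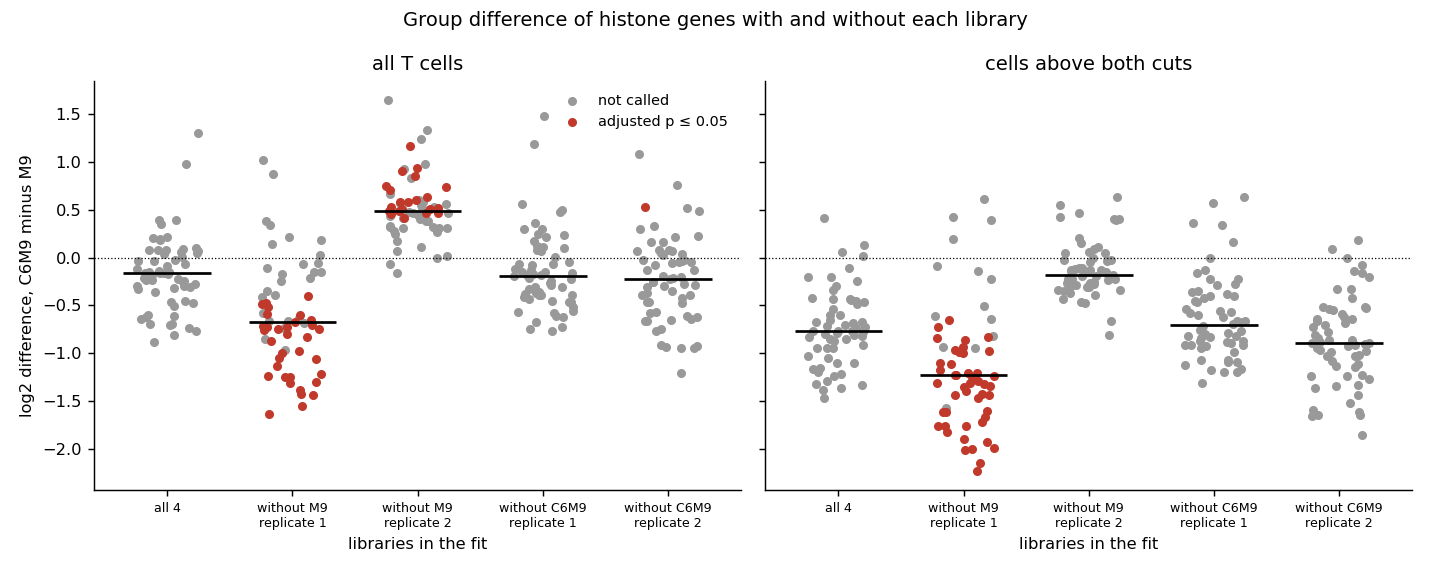
Log2 difference between C6M9 and M9 for each histone gene (points; red, edgeR adjusted p at most 0.05; bars are medians), in all T cells (left) and S and G2M range cells (right), with all 4 libraries and with each left out. Over all T cells the median moves from -0.67 without M9 replicate 1 to 0.48 without M9 replicate 2.

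Within S and G2M range cells, none of 59 members was called (0.296% of 11807 genes were, 0.0762% higher and 0.22% lower). The median was -0.77, against 0.00 over all genes. An unadjusted edgeR p under 0.05 was found for 37 members. That count is given without its share over all genes, so nothing is read from it. DESeq2 called 2 lower (3.39%, against 0.508% of genes lower and 0.432% higher). Without M9 replicate 1, 46 members were lower in C6M9 and none higher (1.74% and 1.15% of genes). Without M9 replicate 2 none was called (0.581% of genes higher and 1.24% lower) and the median was -0.19. Without the filter on low counts 41 were lower (67.2%, against 1.43% of genes), so the count also moved with the genes tested. Hist1h4d had 183 and 583 CPM in M9 and 156 and 159.5 CPM in C6M9, a difference of -1.22 ± 0.39 (edgeR adjusted p = 0.298). The 2 M9 values lay 3.18-fold apart. For Hist1h4i the difference was -0.11 ± 0.10.

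Non-cycling range cells gave no call among 43 members (8.41% of 12450 genes were called, 3.04% higher and 5.37% lower) and a median of -0.19. An unadjusted edgeR p under 0.05 was found for 2 members, again without the share over all genes. Without M9 replicate 1, 10 of 46 members were lower (21.7% against 9.04% of genes), and without M9 replicate 2, 2 of 44 were higher (4.55% against 7.09% of genes).

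In S range cells 6 of 38 members were higher in C6M9 and none lower (2.74% of 10229 genes were higher and 1.97% lower, 4.71% in all), with a median of 0.65. Hist1h1b had 73.8 and 35.7 CPM in M9 and 122 and 138 CPM in C6M9, a difference of 1.22 ± 0.19 (edgeR adjusted p = 6.06e-04). Hist1h2ap had 58.2 and 51.0 CPM against 106 and 239 CPM (1.71 ± 0.24; edgeR adjusted p = 1.62e-04), and Hist1h2ae 36.4 and 27.0 against 72.01 and 108 CPM (1.53 ± 0.18; edgeR adjusted p = 1.87e-05). In these 3 the groups did not overlap. Hist1h1d (1.10 ± 0.22), Hist1h2an (2.12 ± 0.57) and Hist1h3b (2.38 ± 0.63) were the others. Hist1h3b had 3 and 2 UMIs in the M9 libraries and Hist1h2an 3 and 7, so the size of these 2 differences is uncertain.

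The make-up of the S range moved with this result. TCR-activated-like cells were 56.1% and 39.6% of it in M9 and 22.8% and 21.1% in C6M9, and cluster 6 was 26.5% and 43.4% against 59.6% and 67.4%. Within cluster 6 cells of the S range the summed histone level was 857 and 722 CPM in M9 and 836 and 1025 CPM in C6M9, and the groups overlapped. With other cuts or with phases called by scanpy none of these members was called, and DESeq2 called 1. Without M9 replicate 2, 12 of 42 members were higher (28.6% against 5.66% of genes). Without M9 replicate 1, 5 of 45 were higher and 1 lower (11.1% and 2.22%, against 2.45% and 2.3% of genes). Without C6M9 replicate 1 or 2, 2 members were higher (4.44% and 5.13%, against 0.31% and 0.257% of genes).

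Whether the rise from non-cycling to S and G2M range cells differed between groups was tested as an interaction. It was smaller in C6M9 for 8 of 55 members and larger for none (0.881% of 11125 genes were lower and 0.503% higher, 1.38% in all), with a median of -0.53 against -0.06 over all genes. Hist1h2be, an H2b gene, was 5.77-fold and 8.55-fold higher in S and G2M range cells in M9 and 3.25-fold and 4.02-fold in C6M9 (interaction -1.06 ± 0.19; edgeR adjusted p = 0.00519). Hist1h2ak, an H2a gene, was 31.6-fold and 31.9-fold higher against 16.5-fold and 14.8-fold (-1.13 ± 0.24; edgeR adjusted p = 0.0199). Both M9 folds exceeded both C6M9 folds in each. For Hist1h2ap the folds were 116 and 117 in M9 and 114 and 95.6 in C6M9 (-0.24 ± 0.40). The count was 2 without M9 replicate 1, 1 without M9 replicate 2 and 0 without either C6M9 library, and DESeq2, which gave an adjusted p for 29 members, called none.

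Genes that make, process and carry histones also rose in S and G2M range cells, with medians below that of the histone genes. Of 14 genes of histone gene transcription, 11 were higher and 1 lower, with a median log2 difference of 0.78. E2f1 (4.07 ± 0.12; a transcription factor of the G1 to S transition) and Ccne1 (3.16 ± 0.07; cyclin E) led. Of 19 tested genes of 3′ processing and decay, 15 were higher and 3 lower with a median of 0.71, led by Slbp (2.14 ± 0.06) and Eri1 (1.52 ± 0.07), the exonuclease that trims the stem-loop end. Of 25 chaperone and import genes 20 were higher and 3 lower with a median of 1.21, led by Asf1b (5.07 ± 0.12), which hands H3 and H4 on, and Chaf1a (4.62 ± 0.11), a subunit of the assembly factor at the replication fork. All 10 tested replication-independent variants were higher, with a median of 0.82, led by H1fx (3.46 ± 0.32) and the centromeric H3 gene Cenpa (2.23 ± 0.10).

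Between groups over all T cells, Ccne1 (0.61 ± 0.10; edgeR adjusted p = 0.0162), Cdk2 (0.48 ± 0.11; edgeR adjusted p = 0.0423) and E2f1 (0.45 ± 0.10; edgeR adjusted p = 0.0382) of the transcription list and Asf1b (0.56 ± 0.11; edgeR adjusted p = 0.0267) of the chaperones were higher in C6M9. Without M9 replicate 2 these differences were 0.65, 0.59, 0.53 and 0.62 and all 4 were called; without C6M9 replicate 1 they were 0.48, 0.42, 0.42 and 0.41 and none was. Without C6M9 replicate 2, Cdk2 (edgeR adjusted p = 0.0630) and E2f1 (edgeR adjusted p = 0.0939) were not called. None of 20 processing genes and none of 10 variants was called. The share of T cells in the S and G2M range, higher in both C6M9 libraries than in both M9 libraries, moved with these 4 genes, and its part in their difference was not tested. None of the genes of the 4 lists was called between groups within the S and G2M range, where 0.296% of all genes were.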

How the data were processed

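The authors deposited 1 matrix of raw UMI counts for each library, made with Cell Ranger 6.0.0 on mm10 per the submitters' processing notes; the annotation release and the intron setting: not given in the sources used here. Of 11113 barcodes, 10324 passed minimums of 500 genes and 1000 UMIs and a mitochondrial maximum of 10%; Scrublet's own threshold marked 10 barcodes, which is too few, so the barcodes with the highest Scrublet scores were left out at 0.8% per 1000 barcodes of a library (277 in all). Cells were clustered in scanpy 1.11.5 without the histone genes; 127 B cell-like cells were set aside. The 2 score cuts were Otsu thresholds over T cells of all libraries. UMIs were summed per library and range and tested two-sided in R 4.3.3 with edgeR 4.0.16 (filterByExpr, TMM, trended dispersion, 0.05 after Benjamini-Hochberg adjustment over all genes), with no replicate block. Levels are unscaled CPM. Shares at 5000 UMIs are hypergeometric expectations. Library totals of T cell UMIs ran from 32311461 to 71628643. With 2 libraries per group an exact permutation test cannot go below p = 0.333 (two-sided).

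On simulated counts with 200 genes changed, the test recovered 74.0% of 2-fold and 37.0% of 1.5-fold changes between groups over all T cells (13511 genes, 0.893% false calls), 74.0% and 45.0% in non-cycling range cells (12289 genes, 1.65%), 76.0% and 31.0% in S range cells (10094 genes, 2.73%), 74.7% and 43.4% in S and G2M range cells (11661 genes, 7.14% false calls), and 98.0% and 90.8% between ranges (10973 genes, 3.12% false calls). Recovery was not tested for the histone genes as a set. Over all T cells the median ratio of M9 replicate 2 to M9 replicate 1 was 2.29 for the 61 members. Alternatives were DESeq2 1.42.0, no filter, no TMM, each library left out, doublets kept, other cuts, scanpy phases and a replicate block. Per-library values are given for the 3 members of each type with most UMIs, members called between groups and those with the 3 largest and 3 smallest state differences, and for further members chosen after their values were seen. In each pathway list the genes called between groups over all T cells and the 2 with the largest state difference are named. Members and lists were chosen with earlier results of these data known. Stem-loops came from GENCODE M21 transcripts, promoters from RefSeq (GRCm38.p6).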

Additional observations from a re-analysis of the deposited data

Results flagged for a closer look

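The change from non-cycling to S and G2M range cells differed between the groups for 8 members, by edgeR's test of the interaction (C6M9 minus M9, log2 scale, n = 2 libraries per group, adjusted over all genes). The values were -1.13 for Hist1h2ak, -1.06 for Hist1h2be, -0.99 for Hist1h2ac, -0.79 for Hist2h2bb, -0.71 for Hist2h2aa1, -0.61 for Hist1h1c, -0.60 for Hist2h2ac and -0.56 for Hist1h4h. All 8 are smaller rises in C6M9. Without M9 replicate 2, the library with the higher histone level, the members' median moved from -0.53 to -0.29. The rise in M9 replicate 2 was larger than in M9 replicate 1 for Hist1h2be (8.55-fold against 5.77-fold), Hist1h2ak, Hist1h2ac, Hist2h2bb and Hist1h4h, and smaller for Hist1h1c (2.86-fold against 3.21-fold), Hist2h2aa1 and Hist2h2ac.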

How the results depend on the processing

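The count of members called in the S and G2M against the non-cycling range stayed within 1.5 times under every alternative (55 to 59 called). Other counts of members called moved. Over all T cells: 1 with DESeq2, 13 with no filter, 0 to 34 with a library left out. Non-cycling range: 1 with no filter, 3 with cuts 20% higher, 0 to 10 with a library left out. S range between groups: 1 with DESeq2, 0 with cuts 20% higher or lower and with scanpy phases, 2 to 12 with a library left out. S and G2M range between groups: 2 with DESeq2, 41 with no filter, 0 to 46 with a library left out. S against non-cycling range: 7 with cuts 20% lower. G2M against non-cycling range: 55 with cuts 20% higher, 10 with cuts 20% lower, 20 to 34 with a library left out. Interaction: 0 with DESeq2, 3 without TMM, 15 and 0 with cuts 20% higher and lower. With a library left out the members' median interaction ran from -0.61 to -0.29. With no filter, 1.64% of members were higher and 19.7% lower between groups over all T cells (4.0% and 5.59% of genes). For the interaction with cuts 20% higher, 26.3% of members were lower (0.981% of genes). For the non-cycling range with cuts 20% higher, 5.77% were higher (3.04% of genes). The mean share of S and G2M range cells with a histone UMI was 96.6% at 5000 and 87.4% at 2000 UMIs per cell. Apart from settings that leave out samples or genes, the cause was not tested.

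With a replicate block, 1 member was lower in non-cycling range cells (2.33%, against 5.27% of genes). In S and G2M range cells 4 were lower (6.78%, against 0.373% of genes). In S range cells 23.7% were higher (3.87% of genes). The Hist1h2ae difference over all T cells turned to 0.039. Like-numbered libraries were not shown to be paired (deviations correlated at -3.4e-06 over all genes and 0.214 over the 61 members, with 1 deviation per group).

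Directions that reversed: in the S range between groups, with cuts 20% higher and with scanpy phases, Hist1h1b (-0.14, -0.45), Hist1h1d (-0.077, -0.48), Hist1h2ae (-0.049, -0.49; -0.42 with cuts 20% lower), Hist1h2an (-0.61, -1.21), Hist1h2ap (-0.0017, -0.59) and Hist1h3b (-0.36, -1.02). Over all T cells, Hist1h1b was -0.024 without TMM, and with a library left out ran from -0.24 (without C6M9 replicate 1) to 0.33; Hist1h2ap ran from -0.68 to 0.83 (without M9 replicate 2) and Hist1h2ae from -0.40 to 0.52 (without M9 replicate 2). With doublets kept Hist1h2ae was 0.0017.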
